A study of Mus musculus with 6 samples.

Results

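The rows described here are the minor-arm, or star, strands of microRNAs (miRNAs) in the left ventricle of aged mice. Of the 698 mouse miRNA rows in the table, 116 carried a name ending in an asterisk, the older notation for the strand thought to be the less used one of a precursor. The rows were selected on their measured values: a star row was taken where it was above 0 in at least 3 of the 6 libraries. This left 50 rows once 19 star rows of miR-17, miR-21, miR-22, miR-27a, miR-27b, miR-29, miR-30, miR-34, miR-125b, miR-199, miR-214, miR-322 and miR-378 were set aside. The other star rows were seen in 1 or 2 libraries (13 rows) or were at 0 throughout (34 rows). Because detection itself chose the 50 strands, their number and the fact of their detection are a description and were not tested.

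Left ventricles of 3 wild-type mice (WT) and 3 heterozygous mutants (aMHC403/+, here "403 mutant"), all more than 50 weeks of age, were profiled by small RNA sequencing. The mutants carry the R403Q change in Myh6, the gene of the alpha-myosin heavy chain, and serve as a model of HCM, read here as hypertrophic cardiomyopathy. Sample titles call the libraries biological replicates, and they were taken as separate animals. The labels used here state neither strain nor sex.

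A miRNA precursor is a hairpin whose stem is cut into a short duplex. One strand is loaded into an Argonaute protein and guides it to messenger RNAs through its seed, bases 2 to 8 from the 5′ end, while the partner strand is usually discarded. The choice leans toward the strand whose 5′ end is less stably paired, and toward a 5′ U or A, but it is not absolute: some discarded strands are kept, and a strand named as minor in one tissue can be the more abundant one in another. The 2 arms have different seeds and so different targets.

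The sequences of the star strands on which the results turn, with the major arms of those whose arms are compared most closely, show how far the seeds of partner arms differ and that the 2 miR-24 stars share theirs. Letters are RNA, 5′ to 3′, from RefSeq (GRCm38.p6), with the seed in capitals. Of the 50 strands, 46 matched a RefSeq mature sequence exactly.
miR-24-2*: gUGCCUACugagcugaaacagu
miR-24-1*: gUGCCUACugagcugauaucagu
miR-24: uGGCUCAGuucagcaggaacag
miR-425*: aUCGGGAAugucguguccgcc
miR-425: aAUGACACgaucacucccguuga
miR-330*: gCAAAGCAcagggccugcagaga
miR-330: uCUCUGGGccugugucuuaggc
miR-140*: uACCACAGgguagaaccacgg
let-7d*: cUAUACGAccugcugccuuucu
let-7d: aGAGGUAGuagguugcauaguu
let-7c-2*/let-7a*: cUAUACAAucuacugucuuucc
miR-28*: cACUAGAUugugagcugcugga
miR-28: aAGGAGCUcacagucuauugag
miR-99b*: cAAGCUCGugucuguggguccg
miR-99b: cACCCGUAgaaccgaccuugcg
miR-186*: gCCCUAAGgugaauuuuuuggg

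The libraries held 2483486 to 5223636 miRNA reads, and each detected 367 to 407 rows. Levels are reads scaled to a common total of miRNA reads (RPM). A single read counted for 0.191 to 0.403 RPM depending on the library. A count of 0 therefore allowed up to 0.574 to 1.21 RPM (3 reads), and such floors cover counting error only. Heart muscle markers dominated every library: miR-1, miR-133a, miR-208a, miR-208b and miR-499 together held 425032 to 503983 RPM in WT against 400915 to 463229 RPM in the mutants, while the liver marker miR-122 stayed at or below 1.17 RPM. Most of the heart muscle sum was miR-1 (mean 266382 RPM) and miR-208a (156220 RPM), and miR-133a averaged only 466 RPM. The 4 fibroblast markers (miR-21, miR-214, miR-199a-5p and miR-199a-3p) summed to 1613 to 3040 RPM in WT against 3931 to 8512 RPM in the mutants, without overlap, and none was at 0. In a bulk sample fewer cells of a type and less RNA per cell cannot be told apart, and the part of this marker difference in the star levels below was not tested.

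The 50 strands were sharply unequal. Their means over the 6 libraries ran from 0.168 to 10735 RPM with a median of 2.11 RPM. A mean of 1000 RPM or more was reached by 2 strands, both of miR-24. Another 3 lay between 100 and 1000 RPM, 3 between 10 and 100 RPM, 25 between 1 and 10 RPM and 17 under 1 RPM. All 6 libraries held 36 of them; 6 were seen in 5 libraries, 4 in 4 and 4 in 3. Together the 50 strands made up 1.21% ± 0.198 (SD, n = 3) of the miRNA reads in WT and 1.30% ± 0.311 (n = 3) in the mutants. Single libraries ranged from 0.984% (95% Wilson interval 0.976% to 0.993%) in WT replicate 3 to 1.65% (1.64% to 1.66%) in 403 mutant replicate 1. The difference of 0.0985 percentage points was within the spread of either group, and it turned to -0.0123 without WT replicate 3 and to -0.0750 without 403 mutant replicate 1. Without the 2 miR-24 stars the share was 0.0758% ± 0.0149 in WT and 0.0832% ± 0.00431 in the mutants, so nearly all reads of these strands came from miR-24.

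**Figure D1:**
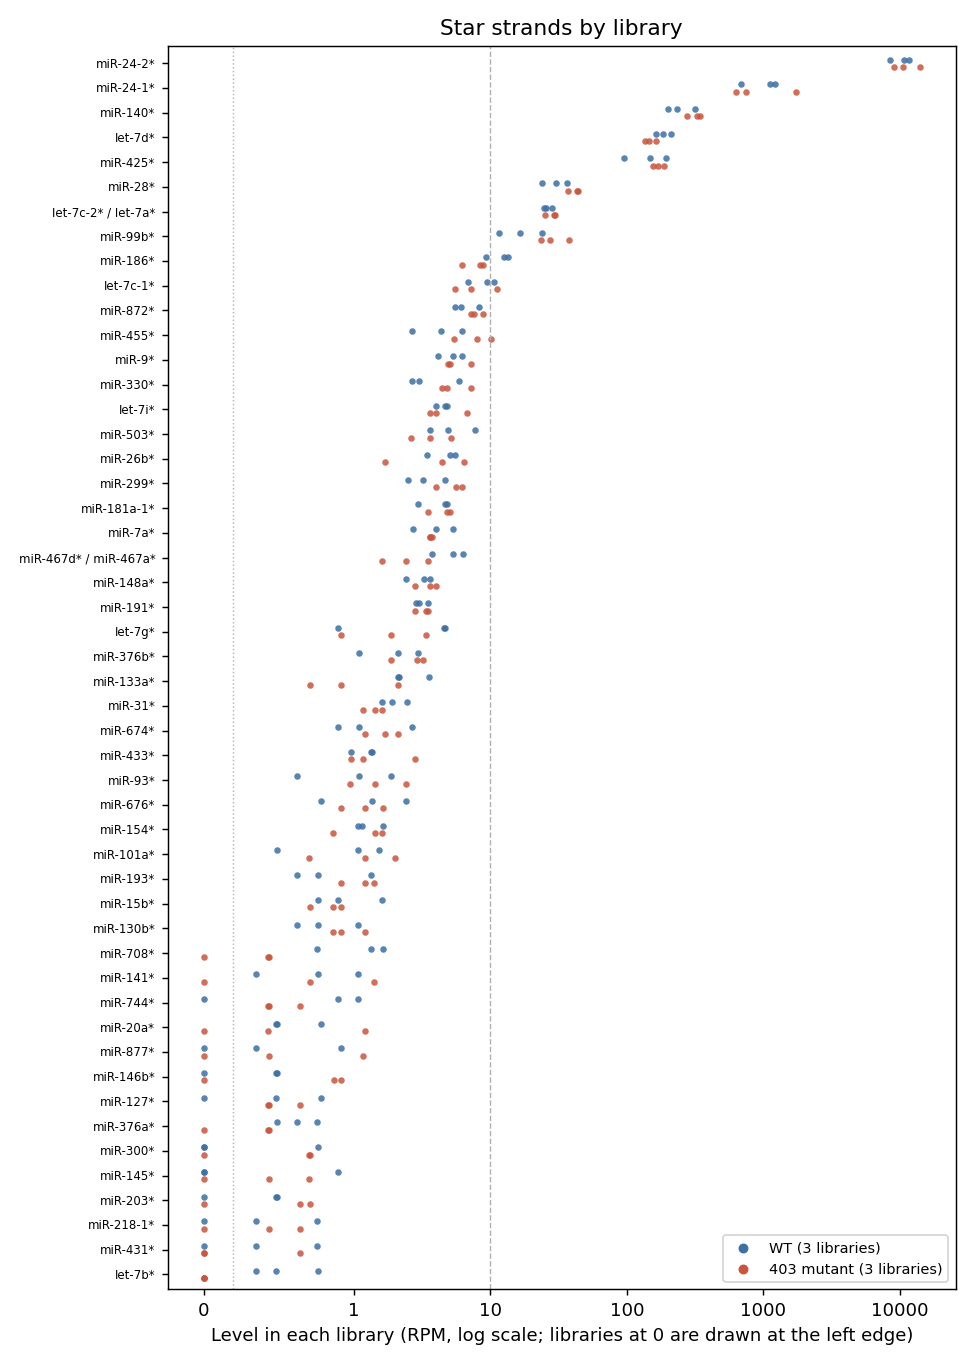
Level of each of the 50 star strands in each library (RPM, log scale; points left of the dotted line are libraries at 0; blue, 3 WT; red, 3 403 mutant), ordered by mean, with a dashed line at 10 RPM. The 2 miR-24 stars lie far to the right of the rest, whose median is 2.11 RPM, and WT and mutant points are intermingled in most rows.

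At the detection limit, the weakest strands taken were let-7b* (mean 0.168 RPM, 4 reads in all), miR-431* (0.189 RPM, 4 reads) and miR-218-1* (0.229 RPM, 5 reads). The nearest star rows not taken, each seen in 2 libraries, were miR-200a* (0.131 RPM, 3 reads), let-7f* (0.107 RPM, 2 reads) and miR-10a* (0.106 RPM, 2 reads). The rule thus separated rows by single reads at its lower end.

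Each star was then set against its major arm, the row of the same name without the asterisk. A major arm was named for 48 of the 50 strands (47 different rows, since miR-24 serves both of its stars). The star was the lower arm by mean in 45 pairs and in each of the 6 libraries in 41. As a share of the reads of both arms the star held a median of 4.56%, from 0.0120% for let-7b* to 95.2% for miR-425*. The share was under 0.1% in 7 pairs, 0.1% to 1% in 9, 1% to 10% in 14, 10% to 50% in 15 and above 50% in 3. For 3 pairs the reads went against the name: miR-24-2*, miR-425* and miR-330* exceeded their major arms in all 6 libraries. Arms are compared here by reads, and whether the libraries recovered different sequences equally was not tested.

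**Figure D2:**
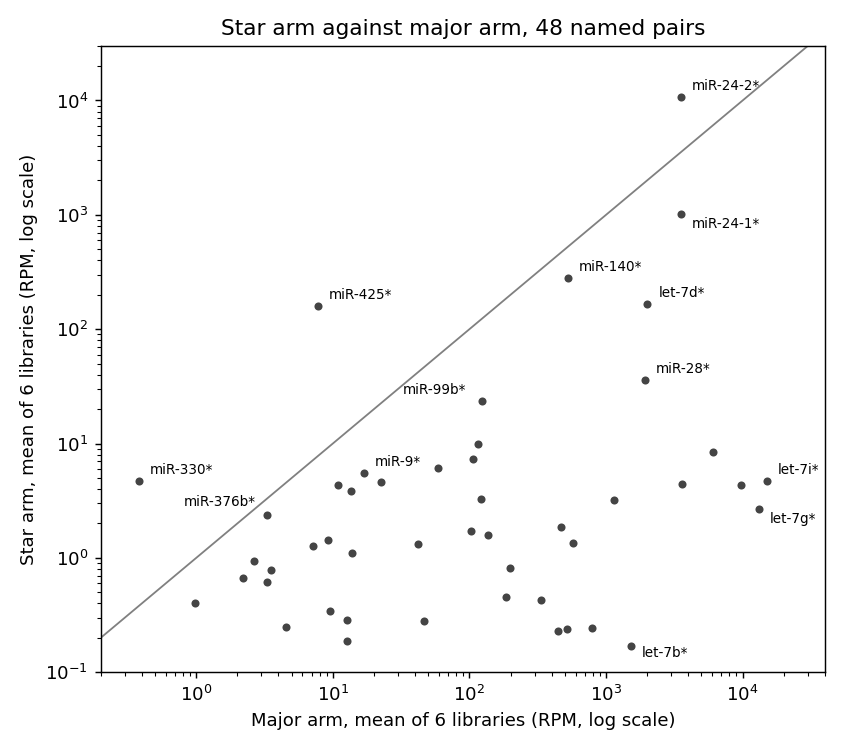
Mean level of the star arm (vertical, RPM, log scale) against that of the major arm (horizontal, RPM, log scale) for 48 named pairs; the line marks equal levels. miR-24-2*, miR-425* and miR-330* lie above the line, and the other 45 pairs lie below it.

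miR-24-2* was the most abundant star strand and ranked 20 among all miRNA rows. miR-24 is known in the heart for repressing junctophilin-2, a protein that holds the calcium release units of the muscle cell together. It is made from a pair of loci, each next to a miR-23 and a miR-27. The star of the second locus lies on chr8:84208839-84208860 (plus strand, GRCm38.p6), outside any other gene of GENCODE M21. It stood at 10778, 11600 and 8504 RPM in WT replicates 1 to 3 and at 13927, 9083 and 10520 RPM in 403 mutant replicates 1 to 3. The groups overlapped, with means of 10294 ± 1603 RPM (SD, n = 3) and 11177 ± 2488 RPM (n = 3).

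miR-24-1*, from chr13:63301213-63301235 (plus strand), lies in an exon annotated to 2010111I01Rik and, on the opposite strand, an intron of Fancc. It stood at 1209, 1119 and 691 RPM in WT against 1721, 634 and 748 RPM in the mutants. The highest and the lowest library were both mutants. The first 16 bases of the 2 stars are identical, so reads cut short of their 3′ ends could have been assigned to either, and the split between them is uncertain. miR-24 itself, the shared product of both loci, stood at 3226, 3638 and 2586 RPM in WT against 4517, 3279 and 3891 RPM in the mutants. The 2 stars together made up 78.2% ± 0.534 (SD, n = 3) of all miR-24 reads in WT and 75.6% ± 1.77 (n = 3) in the mutants. In this table the arm named as minor thus held most of the reads. Of the cluster neighbours, miR-23a averaged 15308 RPM and miR-27a 857 RPM beside miR-24-2, and miR-23b averaged 21174 RPM and miR-27b 6187 RPM beside miR-24-1.

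miR-425* lies on chr9:108568830-108568850 (plus strand), in an exon of the long non-coding RNA 4833445I07Rik. It stood at 148.3, 191.95 and 94.95 RPM in WT against 187.7, 170.2 and 154.6 RPM in the mutants, with overlap. Its partner miR-425 reached only 7.15 ± 1.73 RPM (SD, n = 3) in WT against 8.43 ± 1.19 RPM (n = 3) in the mutants. The star held 95.2% ± 0.558 and 95.3% ± 0.574 of the reads of both arms. Another star begins 463 bases away within the same gene, miR-191*, and it took the usual course: it averaged 3.18 RPM against 1150 RPM for miR-191, or 0.280% of both arms. By reads, neighbouring hairpins within 1 host gene thus had opposite dominant arms.

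miR-330* lies on chr7:19181525-19181547 (plus strand) in an exon annotated to Eml2. It was a weak strand, at 3.02, 5.91 and 2.68 RPM in WT against 7.26, 4.81 and 4.43 RPM in the mutants. miR-330 was weaker still, between 0.269 and 0.481 RPM, that is 1 or 2 reads in each library. The star's share of 91.9% therefore rests on 109 star reads and a handful of major-arm reads. Both arms were under 10 RPM and outside the arm test.

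miR-140 is best known from cartilage. Its star lies on chr8:107551288-107551308 (plus strand) in an exon annotated to Wwp2 and stood at 200, 318 and 233 RPM in WT against 324, 273 and 343 RPM in the mutants. WT replicate 2 lay among the mutants. miR-140 stood at 506 ± 71.9 RPM (SD, n = 3) in WT against 551 ± 139 RPM (n = 3) in the mutants, so the star held 32.9% ± 2.74 and 36.7% ± 4.30 of both arms. It was the most even of the 6 pairs of these strands in which both arms averaged 10 RPM or more.

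The let-7 family, known for its part in developmental timing and cell differentiation, gave 6 of its 7 star rows. let-7d*, on chr13:48536024-48536045 (minus strand) in an exon of the long non-coding RNA 6720427I07Rik, led them at 183.7, 209.4 and 162.1 RPM in WT against 162.4, 144.7 and 136.9 RPM in the mutants. The highest mutant library was level with the lowest WT library. let-7d* held 8.19% ± 0.845 (SD, n = 3) of both arms in WT and 7.14% ± 0.715 (n = 3) in the mutants.

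The combined row let-7c-2*/let-7a*, whose sequence is encoded 2164 bases from let-7d* at chr13:48538188-48538209 and again at chr15:85706664-85706685, stood at 24.7, 28.2 and 25.6 RPM in WT against 25.1, 29.8 and 29.4 RPM in the mutants. It has no single major arm; let-7a averaged 6356 RPM and let-7c 6057 RPM. The remaining let-7 stars were scarce beside their major arms. let-7c-1* averaged 8.50 RPM (0.139% of both arms), let-7i* 4.66 RPM (0.0319%), let-7g* 2.67 RPM (0.0206%) and let-7b* 0.168 RPM (0.0120%). Within 1 family the star share thus ranged from 0.0120% to 7.67%. let-7b* had 2, 1 and 1 reads in WT and none in the mutants, and was the 1 strand seen in a single genotype; each mutant library's floor of 3 reads lies above its WT levels.

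miR-28*, in an intron of Lpp on chr16:24827908-24827929 (plus strand), stood at 23.9, 36.6 and 30.1 RPM in WT against 37.3, 43.1 and 43.9 RPM in the mutants. All mutants lay above all WT libraries, although WT replicate 2 came close. Its major arm miR-28 was abundant in both groups, at 1828 ± 333 RPM (SD, n = 3) in WT against 2045 ± 185.5 RPM (n = 3) in the mutants.

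miR-99b*, in an intron of Spaca6 on chr17:17830232-17830253 (plus strand), comes from a cluster with let-7e and miR-125a. It stood at 11.5, 23.9 and 16.5 RPM in WT against 23.7, 27.4 and 37.9 RPM in the mutants. WT replicate 2 was just above 403 mutant replicate 1, and otherwise the mutants were higher. miR-99b stood at 113 ± 25.8 RPM (SD, n = 3) in WT against 135 ± 17.6 RPM (n = 3) in the mutants. Its cluster partners stood at 176 ± 27.4 and 214 ± 32.4 RPM (let-7e) and at 580 ± 69.4 and 789 ± 133.03 RPM (miR-125a-5p). The star held 13.2% ± 3.11 of both arms in WT and 18.01% ± 3.50 in the mutants.

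miR-186*, in an intron of Zranb2 on chr3:157544324-157544345 (plus strand), was next in level. It stood at 13.4, 12.6 and 9.38 RPM in WT against 8.90, 6.26 and 8.46 RPM in the mutants, with every mutant below every WT library. miR-186 stood at 111 ± 10.7 RPM (SD, n = 3) and 121 ± 14.1 RPM (n = 3).

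The comparison asked whether any of these strands were present at another level in the 403 mutant ventricle than in WT. None passed the test. limma on log2(RPM + 1), fitted to the 193 rows that averaged 10 RPM or more and adjusted by Benjamini-Hochberg over all of them, called 10 rows (5.18%) and none of the 8 star strands among them. At an unadjusted p under 0.05 there was 1 star of 8 against 42 rows of 193, and edgeR and DESeq2 on the recovered reads likewise called none of the 8. Differences on this scale understate those of low rows.

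The closest was miR-99b*, higher in the mutants by 0.77 ± 0.28 (log2, moderated SE; 95% interval 0.21 to 1.34; limma adjusted p = 0.0823). It passed when WT replicate 2 was left out (1.03, limma adjusted p = 0.0317) and when 403 mutant replicate 1 was left out (0.92, limma adjusted p = 0.0253), the libraries in which the groups touched. miR-28* differed by 0.46 ± 0.25 (limma adjusted p = 0.294) and miR-140* by 0.34 ± 0.23 (limma adjusted p = 0.423). let-7d* differed by -0.32 ± 0.23 (limma adjusted p = 0.441) and miR-425* by 0.29 ± 0.25 (limma adjusted p = 0.521). The remaining 3 were nearest to 0: miR-24-2* at 0.11 ± 0.19, let-7c-2*/let-7a* at 0.10 ± 0.25 and miR-24-1* at -0.07 ± 0.27. Their 95% intervals ran from -0.27 to 0.49, from -0.41 to 0.60 and from -0.61 to 0.48, so differences up to those bounds in either direction remained possible.

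**Figure D3:**
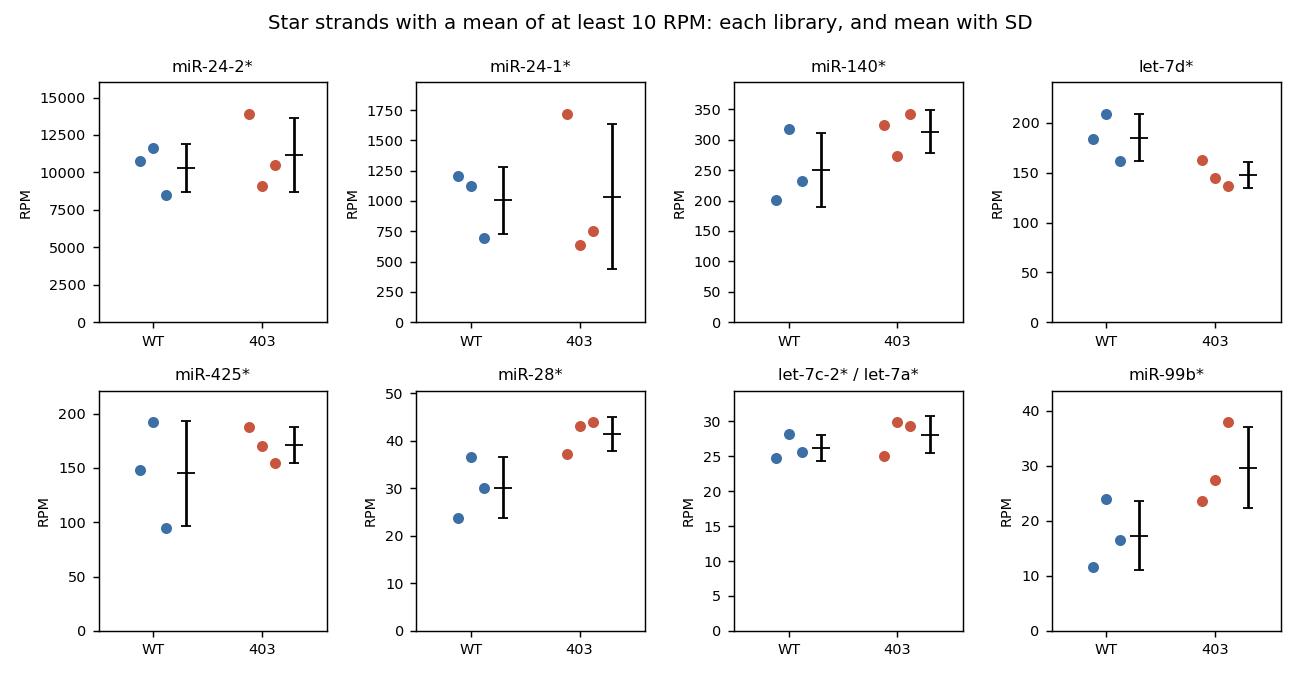
Level in each library (RPM, linear axes from 0) of the 8 star strands that averaged 10 RPM or more, with the mean and SD (n = 3) beside each group. miR-28* is the 1 strand whose mutants (37.3 to 43.9 RPM) all lie above its WT libraries (23.9 to 36.6 RPM).

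RPM is a share, and the median difference over the 193 rows was 0.15. It was -0.00081 after median-of-ratios scaling, 0.05 after TMM scaling and 0.02 when the 5 most abundant rows were kept out of the totals. The signs of miR-24-2* and let-7c-2*/let-7a* turned under such scalings, to -0.05 and -0.06 under median-of-ratios, so no direction can be given for either. The sign of miR-24-1* turned to 0.04 in both edgeR and DESeq2 on the recovered reads and to between 0.03 and 0.21 when WT replicate 1 or 2 or 403 mutant replicate 2 or 3 was left out, so it too has no direction.

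Weaker strands were fitted with lower filters. At a mean of 1 RPM or more limma called 20 of 309 rows (6.47%) and none of 33 stars, with 4 of the 33 at an unadjusted p under 0.05. Without a filter it called 9 of 478 detected rows (1.88%) and none of the 50, with 5 of the 50 at an unadjusted p under 0.05 against 74 of the 478. Of the 50 strands 29 lay above 0 and 21 below, with a median of 0.04, beside 292 above, 186 below and a median of 0.10 over all detected rows.

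**Figure D4:**
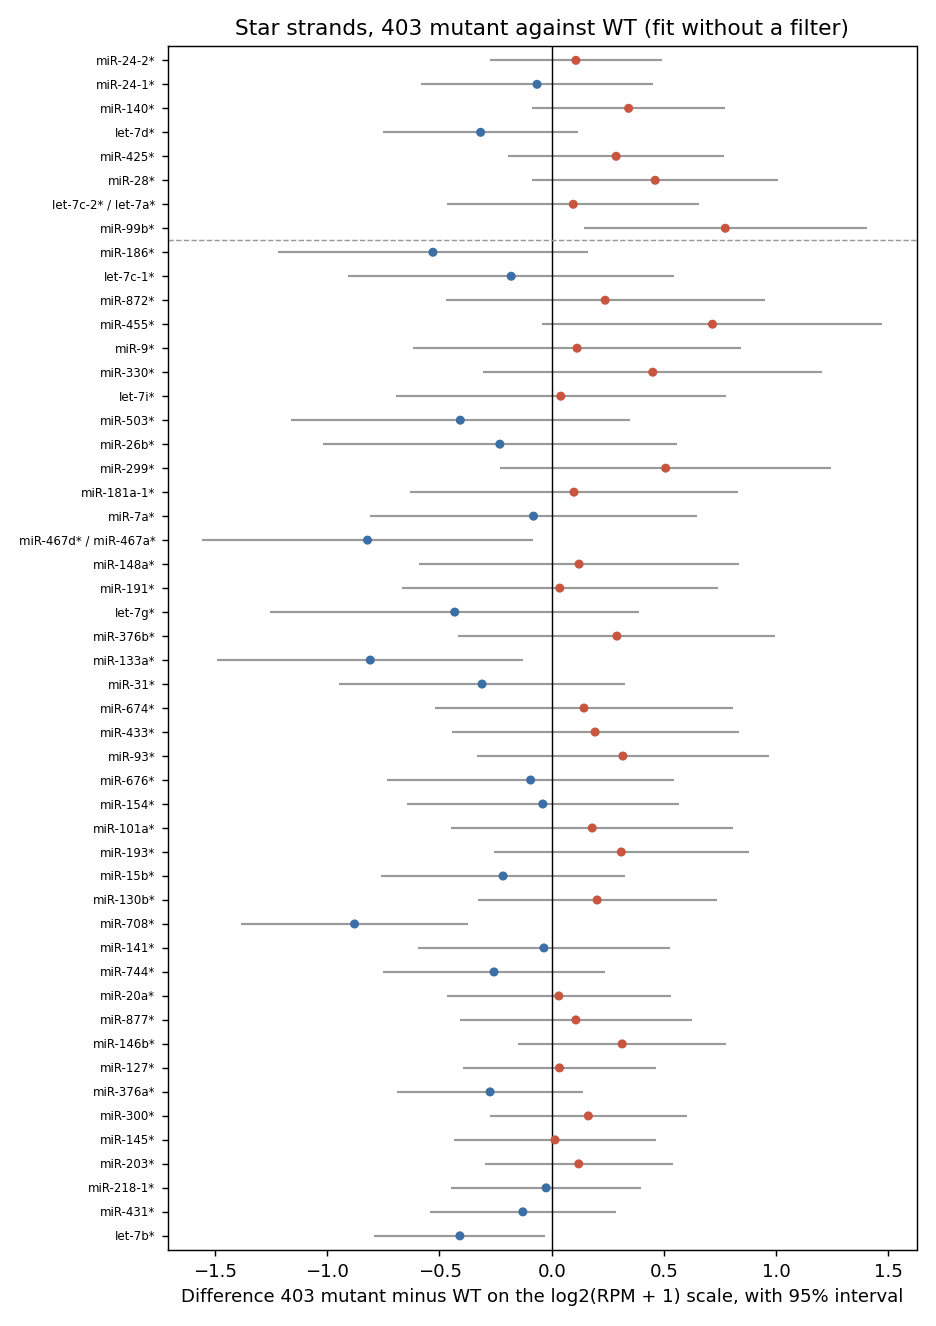
Difference 403 mutant minus WT on the log2(RPM + 1) scale with its 95% limma interval for each of the 50 star strands in the fit without a filter, ordered by mean level; the dashed line separates the 8 strands at 10 RPM or more. Red points lie above 0 (29 strands) and blue points below (21 strands), and no strand passed the adjusted threshold.

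miR-99b*, with 526 reads in all, again came near the threshold at the 1 RPM filter (0.77 ± 0.27, limma adjusted p = 0.0583) but not without a filter (0.77 ± 0.31, limma adjusted p = 0.220). The other strands described from these fits, named after their values were seen except miR-133a*, were few in reads. miR-708* had 6, 2 and 7 reads in WT and 1, 1 and 0 in the mutants and differed by -0.88 ± 0.25 (limma adjusted p = 0.0606 without a filter). The combined row miR-467d*/miR-467a* had 23, 14 and 28 reads in WT and 15, 10 and 4 in the mutants (-0.82 ± 0.36, limma adjusted p = 0.261), beside means of 2.76 RPM for miR-467a and 2.75 RPM for miR-467d. miR-133a*, the star of a muscle-specific miRNA, had 13, 8 and 11 reads against 9, 2 and 2 (-0.81 ± 0.34, limma adjusted p = 0.233). miR-133a itself stood at 490 ± 64.3 RPM (SD, n = 3) in WT against 443 ± 25.7 RPM (n = 3) in the mutants. For miR-455*, a star from an intron of the collagen gene Col27a1, the mean was 4.42 ± 1.75 RPM in WT against 7.80 ± 2.34 RPM in the mutants, and the difference of 0.72 ± 0.32 did not pass at the 1 RPM filter (limma adjusted p = 0.158).

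Counting strands whose groups did not overlap gave 1 of 50 with the mutants above, miR-28* (2.0%), beside 51 of the 478 detected rows (10.7%). With the mutants below there were 6 of 50 (12%) beside 33 of 478 (6.9%): miR-186*, miR-467d*/miR-467a*, miR-31*, miR-708*, miR-376a* and let-7b*. The last 3 of these rested on 17, 7 and 4 reads in all 6 libraries. Shares of the 50 and of the 478 are not like for like. The 478 include rows seen in only 1 or 2 libraries, where neither pattern can arise. let-7b* was taken only through its 3 WT libraries, so its place among the 6 followed from the rule. miR-31* stood at 1.998 ± 0.433 RPM in WT against 1.41 ± 0.222 RPM in the mutants.

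By origin, no group of stars held a member called for its level, and the groups are small. The 8 strands from the imprinted Dlk1-Dio3 region, whose miRNAs are made from the maternal chromosome, came from 13 star rows. They ranged from 0.189 RPM (miR-431*) to 4.38 RPM (miR-299*), with 5 above and 3 below 0 and a median difference of 0.10. The 6 let-7 stars had 2 above and 4 below 0 and a median of -0.25. Single stars stood for several cell types: miR-145* (0.246 RPM) from a smooth muscle miRNA, miR-146b* (0.345 RPM) from an immune-linked one and miR-9* (5.48 RPM) from a neuronal one.

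Other lists held 1 to 3 strands. miR-26b* averaged 4.44 RPM and miR-101a* 1.09 RPM; miR-20a*, from the miR-17-92 cluster, averaged 0.426 RPM and miR-93*, from a paralogous cluster, 1.36 RPM. miR-181a-1* averaged 4.30 RPM, miR-15b* 0.819 RPM, and miR-141* and miR-203*, whose major arms mark epithelium, 0.617 and 0.238 RPM. None of these passed the test. No star row was listed for miR-221, miR-222, miR-132 or miR-212.

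The balance between arms was compared as log2 of star over major arm, each with 1 RPM added, which within a library does not depend on its total. Both arms averaged 10 RPM or more in 20 pairs of the table, 6 of them members. limma called 0 of the 20 (0%). Its moderated errors here followed a trend over all 20 pairs and took nothing from a pair's own spread. For miR-24-1* the SD of the log2 ratio was 0.245 in WT and 0.567 in the mutants, beside a moderated SE of 0.19. For let-7d* the SDs were 0.160 and 0.152, beside 0.24. At an unadjusted p under 0.05 there were 3 of 20 and 2 of the 6 members, and edgeR on the recovered reads called none and had none of the 6 at that level.

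miR-24-2* stood at 3.34, 3.19 and 3.29 times miR-24 in WT and at 3.08, 2.77 and 2.70 times miR-24 in the mutants, every mutant below every WT library. It was the 1 member of 6 without overlap, beside 3 of the 20 pairs (15%). The log2 ratio differed by -0.20 ± 0.10 (limma adjusted p = 0.274). miR-24-1* stood at 0.375, 0.308 and 0.267 times miR-24 in WT and 0.381, 0.193 and 0.192 times in the mutants (-0.37 ± 0.19, limma adjusted p = 0.274). In 403 mutant replicate 1 the ratio was like WT, and in the other two mutants it was lower than in any WT library. Both stars together, which avoids the uncertain split, stood at 3.72, 3.50 and 3.56 times miR-24 in WT and 3.46, 2.96 and 2.90 times in the mutants.

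The miR-99b* ratio differed by 0.50 ± 0.21 (limma adjusted p = 0.194), that of miR-140* by 0.24 ± 0.16 (limma adjusted p = 0.354), that of miR-28* by 0.29 ± 0.28 (limma adjusted p = 0.463) and that of let-7d* by -0.21 ± 0.24 (limma adjusted p = 0.485). 403 mutant replicate 1 lay on the WT side of the other mutants in 5 of these 6 pairs. Without it limma called 4 of the 6: miR-24-2* (-0.26, limma adjusted p = 3.3e-05), miR-24-1* (-0.70, limma adjusted p = 0.00187), miR-99b* (0.70, limma adjusted p = 0.00597) and miR-140* (0.40, limma adjusted p = 0.0101). The 2 miR-24 pairs share miR-24 as major arm and have an uncertain split of star reads, so they are not 2 separate calls. The calls thus changed with the omission of 1 library. They rest on 2 mutants and on the limma trend fit alone. Neither limma without trend nor edgeR was run without this library, so the small p-values are not strong evidence. The fibroblast marker sum of 403 mutant replicate 1, 3931 RPM, was the lowest of the mutants, and the part of that in the ratios was not tested.

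**Figure D5:**
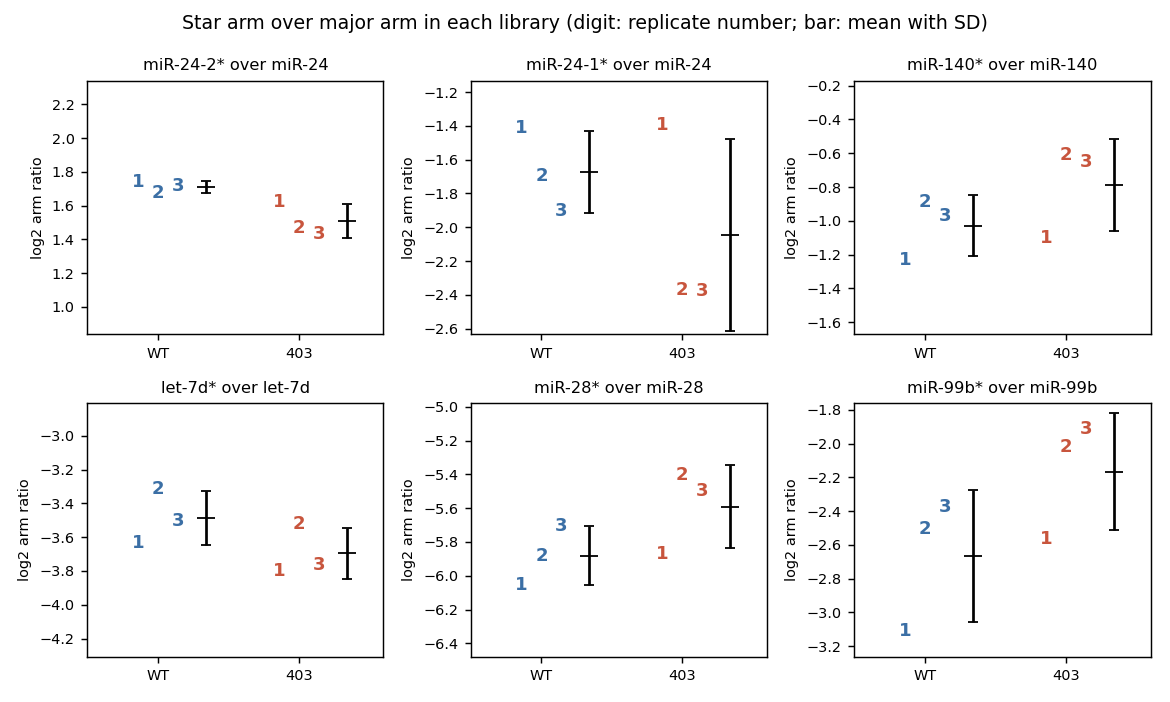
log2 of star over major arm (each RPM + 1) in each library for the 6 tested members; digits are replicate numbers, bars give the mean with SD (n = 3), and all panels span the same number of log2 units. For miR-24-2* the 3 mutants lie below all 3 WT libraries, and 403 mutant replicate 1 lies nearest to WT.

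Weaker pairs were fitted with lower filters. Where a star is near or under 1 RPM the added 1 RPM is large beside it, and the ratio then follows the major arm. With both arms at 1 RPM or more, limma called none of 45 pairs and none of 30 members, with 6 of the 45 at an unadjusted p under 0.05, and edgeR called none (smallest edgeR adjusted p = 0.133, for miR-503*). The 4 members at an unadjusted p under 0.05 were all lower in the mutants: miR-503* (-1.04 ± 0.27, limma adjusted p = 0.0801), miR-31* (-0.84 ± 0.27, limma adjusted p = 0.2001), miR-186* (-0.65 ± 0.26, limma adjusted p = 0.300) and miR-133a* (-0.67 ± 0.28, limma adjusted p = 0.300). For these 4, edgeR on the recovered reads, without the added 1 RPM, gave -1.12, -1.04, -0.72 and -0.97 in the same order. miR-503 is made beside miR-322 on the X chromosome and belongs to the wider miR-15/16 family, known for restraining the cell cycle. miR-503* stood at 4.94, 7.80 and 3.64 RPM in WT against 5.15, 2.65 and 3.62 RPM in the mutants, with overlap. miR-503 stood at 10.97, 25.002 and 16.8 RPM in WT against 36.3, 20.7 and 24.6 RPM in the mutants. The star's share of both arms was 24.2% ± 6.65 (SD, n = 3) in WT against 12.2% ± 0.782 (n = 3) in the mutants.

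Without a filter 1 of 77 pairs was called (1.3%), miR-146b* over miR-146b (-1.33 ± 0.26, limma adjusted p = 0.0147). That star had 7 reads in all 6 libraries, while miR-146b stood at 3.96 ± 1.52 RPM (SD, n = 3) in WT against 15.1 ± 6.33 RPM (n = 3) in the mutants, so the added 1 RPM exceeded the star itself. Unadjusted limma p was under 0.05 in 11 of the 48 members, all lower in the mutants, and in 14 of the 77 pairs, 13 of them lower. The median ratio difference was -0.22 over the 48 members and -0.20 over all 77 pairs.

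Some sequence features that the rule had not used were counted. Except for a first U, they were not counted over star rows outside this set, so none is read as particular to these strands. Of the 46 strands with a RefSeq match 31 came from the 3′ arm of their hairpin and 15 from the 5′ arm. The first base was A in 14 of the 50 strands, C in 16, G in 10 and U in 10, while of the 47 major arms 24 began with U, 11 with A, 7 with C and 5 with G. Of the 34 star rows at 0 throughout, 9 began with U. The 3 stars that outweighed their major arms began with G (miR-24-2* and miR-330*) or A (miR-425*), none with U, and miR-24 and miR-330 began with U. G or C among the first 4 bases averaged 2.04 in the stars and 1.85 in the major arms of the 48 pairs; the major arm had fewer in 17 pairs, as many in 17 and more in 14. Seeds were rarely shared among the strands: miR-24-1* and miR-24-2* shared UGCCUAC, and let-7b* shared UAUACAA with let-7c-2*/let-7a*. Chromosome 12, which holds the Dlk1-Dio3 region, carried 9 strands, the most of any chromosome.

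The remaining strands, all between 0.25 and 7.29 RPM and none called in any of the level fits, were miR-872*, miR-7a*, miR-148a*, miR-376b*, miR-674*, miR-433*, miR-676*, miR-154*, miR-193*, miR-130b*, miR-744*, miR-877*, miR-127* and miR-300*. Among them miR-376b* came closest to its major arm, at 42.5% of both, and exceeded it in 1 library.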

How the data were processed

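The deposited values are reads scaled to a common total, RPM, for each mature mouse miRNA; per the file headers the columns are only called normalised, and the unit was worked out from the values. Divided by the smallest step of its library, 100% of values came out whole within 0.02 reads, so the authors' read counts could be recovered as whole reads. Aligner, counter, miRNA release and genome build: not given in the sources used here. No molecular identifiers are described, so intervals and floors cover counting error only.

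limma 3.58.1 (R 4.3.3, trend, two-sided, no covariates) was fitted to log2(RPM + 1) of the 193 rows with a mean of 10 RPM or more, and to log2((star + 1)/(major + 1)) of 20 pairs, with Benjamini-Hochberg adjustment over each whole table at 0.05. Errors are moderated standard errors, which in the fit of 20 pairs came from the trend over pairs. Alternatives were other pseudocounts, filters, thresholds and scalings, limma without trend, omission of each replicate, a block for replicate number, and edgeR 4.0.16 and DESeq2 1.42.0 on the recovered counts. An edgeR arm test at a mean of 1 RPM was added after seeing the data. The main fits and the edgeR arm test were tried on simulated reads for rows at 10 RPM or more. Rows were drawn independently, so deviations shared across a library were not covered.

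Pairs were formed by name. Sequences were matched to RefSeq (GRCm38.p6) and host genes read from GENCODE M21. A strand was placed in an exon where any annotated transcript of the gene had an exon there, so other transcripts may have an intron. Members, lists and the rule for named strands were chosen with earlier results of these data known, and the lists come from general knowledge. Named were the 10 most abundant strands, every called strand, the 5 with the smallest p in each direction and test, every star at or above its major arm, up to 2 of each list and those nearest to the detection limit; others are named as seen after their values. Python 3.11.15, pandas 2.3.3, numpy 2.4.6, scipy 1.17.1 and matplotlib 3.10.9 were used.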

Additional observations from a re-analysis of the deposited data

How the results depend on the processing

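The count of star strands called by limma was 0 of 8 and became 1 (miR-99b*) at an adjusted p under 0.1; it ran from 0 to 1 when each replicate was left out, and stayed 0 under the other pseudocounts, filters, scalings and tests run. For arm ratios the count was 0 of 6 and became 1 without a filter (of 48 pairs); leaving out each replicate gave 0 to 4, with 4 without 403 mutant replicate 1. Replicate numbers were shared by the groups, but same-numbered libraries deviated together with r of 0.51, -0.07 and 0.18, and only number 1 of the 3 was the best match of its own number in both directions (number 3 was in one), so they were not taken as pairs. With the replicate number as a block the arm ratio count was 3 of 6 (limma adjusted p = 0.0127 for miR-99b*, 0.0286 for miR-24-2* and 0.0472 for miR-140*) and the star count 0 of 8. Among single named strands and pairs, 240 values under alternatives kept their direction and side of the threshold, 9 newly passed and 13 changed sign without passing. The 240 overstate stability, because other filters, limma without trend and the replicate block leave the limma difference itself unchanged. For levels of strands under 10 RPM another filter was the only alternative. No call was reversed, but the main fits held almost none that could be. Requiring 3 reads in 3 libraries, or detection in all 6, left 36 strands. Depth limits the 17 strands under 1 RPM most: at 0.191 to 0.403 RPM a read, they rest on 4 to 22 reads over all 6 libraries.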
